A study of Mus musculus with 54 samples.

Results

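Collagens are the fibrous and sheet-forming proteins of the extracellular matrix, each built of chains that wind into a triple helix inside the cell before export. Fibrillar collagens give connective tissue its strength, type IV collagens form the mesh of basement membranes, and the other classes decorate fibrils, form beaded filaments or span cell membranes. In the testis a basement membrane and a layer of myoid cells surround each seminiferous tubule, and in the ovary basement membranes and stroma surround the follicles and are remodelled as follicles grow. The collagen genes described here are every gene whose symbol reads Col, a number, a, and a number. This rule found 44 of the 26264 genes that were counted in both gonads, and all 44 are covered below by collagen class.

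RNA was sequenced from mouse testis at 35 days after birth and from mouse ovary at 30 days, with 27 libraries of each tissue in 9 groups of 3, named A, B and C. F1 animals came from dams that drank a cocktail of ibuprofen, 2-hydroxyibuprofen, diclofenac and ethinylestradiol from 8.5 days after mating, and drank it themselves until they were killed. Dose 1 held 11.3, 90, 22.5 and 2.25 ng/L of these compounds and dose 2 held 113, 225, 112 and 45 ng/L, while F1 controls drank 0.001% ethanol. F2 animals came from 6 crosses of F1 parents and are listed as untreated. These were the control cross, a dose 1 mother or a dose 2 mother with an unexposed father, a dose 1 father or a dose 2 father with an unexposed mother, and 2 dose 2 parents. No strain is named, no cross with 2 dose 1 parents was analysed here, and nothing states whether the 3 libraries of a group came from separate animals or litters, so p-values measure only the spread between these libraries.

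Total counts per library, in M counts, were 31.6 to 122 in testis and 36.6 to 84.7 in ovary. Levels are given as CPM, the count of a gene per M counts of its library, scaled within each tissue by the trimmed mean of M-values (TMM), which corrects for library composition. The tissue labels fitted their marker genes: Foxl2 of granulosa cells was between 208 and 502 CPM in ovary and at most 0.613 CPM in testis, and Prm2 of spermatids was at least 2430 CPM in every testis library. The summed level of 8 spermatid markers was 8466 to 10987 CPM in F2 testis but 7158 to 29723 CPM in F1 testis, where dose 2 B was the lowest, control A the next lowest and dose 2 C the highest. In ovary that sum was 0.734 to 1.53 CPM in F2 and 10.9 to 82 CPM in 8 F1 libraries, while F1 control A stood apart at 1139 CPM.

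The collagen genes together took 0.119% to 0.254% of the counts of a testis library and 0.849% to 1.5% of those of an ovary library. The ovary was richer in fibrillar collagen: that class made up 45.7% to 53.6% of the summed collagen level in ovary and 15.3% to 34.4% in testis. In 26 of 27 testis libraries the largest share fell to the fibril-associated collagens with interrupted triple helices (FACIT), which made up 31.8% to 63.4% in testis and 3.55% to 4.96% in ovary. The exception was F1 testis dose 2 B, the library at 31.8%, where fibrillar chains took 34.4%. Type IV chains made up 8.75% to 17.0% in testis and 19.2% to 25.1% in ovary. Type VI chains made up 6.01% to 11.7% in testis and 19.4% to 24.9% in ovary. In bulk tissue a difference in the number of cells of a type and a difference in RNA per cell cannot be told apart.

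Per kilobase of exon, Col16a1 had the highest median level in testis at 37.0 CPM per kb. Col16a1 encodes a FACIT collagen that is not restricted to cartilage or tendon. It was followed in testis by Col22a1 at 32.0, Col3a1 at 18.3, Col1a2 at 18.2 and Col20a1 at 12.8 CPM per kb. In ovary the first 5 in that order were Col3a1 at 345, Col1a2 at 303, Col6a1 at 222, Col4a1 at 215 and Col1a1 at 161 CPM per kb. The lengths are those of all exons in GENCODE M21 on build GRCm38, a different build from that of the counts. Median CPM was at least 1 for 41 of 44 genes in testis and for 40 in ovary, and at least 100 for 3 in testis and 18 in ovary. The 3 testis genes under 1 CPM were Col9a2, Col10a1 and Col13a1, and the 4 ovary genes were Col2a1, Col9a1, Col10a1 and Col19a1.

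**Figure D1:**
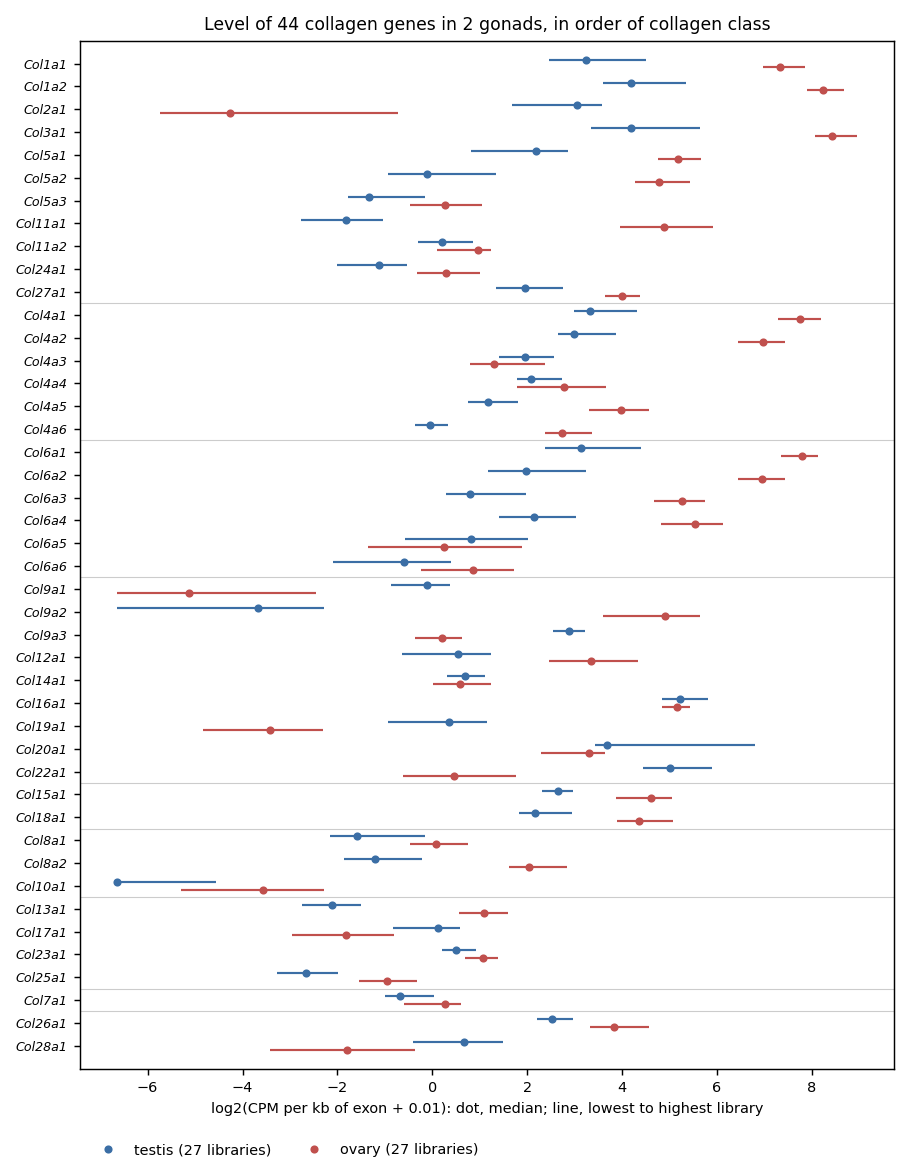
Level of each collagen gene as log2 of CPM per kb of exon plus 0.01 (horizontal axis), with genes in order of collagen class from fibrillar at the top to the unclassed Col26a1 and Col28a1 at the bottom and grey lines between classes. Dots are medians over 27 libraries of testis (blue) or ovary (red) and lines run from the lowest to the highest library. CPM values were scaled within each tissue. The ovary median lies higher for most fibrillar, type IV and type VI chains. The testis median lies higher for Col2a1, Col9a1, Col9a3, Col17a1, Col19a1, Col22a1 and Col28a1 and, by less, for Col4a3, Col6a5, Col14a1, Col16a1 and Col20a1.

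The levels of the gonads were compared in unexposed animals, ovary against testis, with sex and age going along with tissue. The change was estimated with edgeR's quasi-likelihood test on the 12 unexposed libraries of both tissues, scaled together. CPM values were scaled within each tissue instead, so a ratio of CPM between tissues can differ from this change. For Col4a4 in F2 the mean was 58.3 CPM in ovary and 40.9 CPM in testis at a log2 change of 0.01. In F1 controls 30 of 44 collagen genes were higher in ovary and 9 lower, at a Benjamini-Hochberg adjusted p under 0.05, where 85.6% of 20167 genes passed, 43.2% higher and 42.4% lower. In the F2 control cross 26 were higher and 11 lower, where 86.8% of genes passed, 42.4% higher and 44.5% lower. The share of collagen genes that differed was thus near that of all genes, but the median change differed: collagen genes had a median log2 change of 1.86 in F1 and 1.17 in F2, and all genes 0.05 and -0.05. Without F1 ovary control A, the library with the high spermatid marker sum, 29 collagen genes were higher and 9 lower in the F1 comparison. Of all genes 84% passed in that fit, and the call of Col26a1 was lost. Without F1 testis control A 27 collagen genes were higher and 10 lower, where 83.4% of all genes passed. Col4a4, Col10a1 and Col26a1 were then no longer called, and Col4a3 was called lower.

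Among fibrillar chains 9 of 11 were higher in ovary and 1 lower in each generation. Col3a1, the type III chain of reticular fibres, was at 1816, 2476 and 1736 CPM in F1 control ovaries and at 206, 70.0 and 89.2 CPM in F1 control testes. Every ovary library was above every testis library, and the log2 change was 3.72 (SE 0.40, n = 3 against 3, edgeR adjusted p = 8.5e-06). Col1a1 and Col1a2, the 2 chains of type I collagen, had log2 changes of 3.47 and 3.49 in F1 and of 3.82 and 3.76 in F2. Col11a1, a minor chain of fibrils that is best known from cartilage, had the largest change among the fibrillar chains that were higher in ovary. It was at 289, 362 and 297 CPM in F1 control ovaries against a mean of 1.90 CPM (SD 0.92) in testes. Its log2 change was 7.06 (SE 0.49) in F1 and 6.04 (SE 0.47) in F2. Col5a2, which joins Col5a1 in the type V collagen that nucleates fibrils, followed at 4.35 (SE 0.36) and 4.43 (SE 0.36). Also called higher in both generations were Col5a1, Col5a3, Col24a1 and Col27a1. In that order their log2 changes were 2.77, 0.90, 1.97 and 1.84 in F1 and 2.25, 1.01, 0.83 and 1.29 in F2.

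Col2a1, the main collagen of cartilage, was the fibrillar chain that was higher in testis. It was at 30.4, 39.3 and 45.3 CPM in F1 control testes and at 3.05, 0.506 and 0.132 CPM in the ovaries, with the highest ovary value in control A. In the F2 control cross it was at 16.3, 43.2 and 42.0 CPM in testis and at a mean of 0.166 CPM (SD 0.074) in ovary. The log2 change was -5.23 (SE 0.92, edgeR adjusted p = 0.00037) in F1, -7.23 (SE 0.57) in F1 without ovary control A and -8.08 (SE 1.09, adjusted p = 4.4e-05) in F2. Col11a2 did not pass in either generation, with log2 changes of 0.36 (SE 0.21) and 0.37 (SE 0.21).

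Of the 6 basement membrane chains 4 were higher in ovary in both generations. Col4a1 and Col4a2, which form the type IV network found in nearly all basement membranes, had the clearest values. Col4a1 was at 1311, 1764 and 1364 CPM in F1 control ovaries and at 82.8, 69.1 and 69.5 CPM in testes, a log2 change of 4.01 (SE 0.20, edgeR adjusted p = 3.8e-08). Col4a2 was at 713, 986 and 780 CPM against 62.3, 51.0 and 51.6 CPM, a log2 change of 3.59 (SE 0.20). The groups lay far apart for both genes, and the F2 changes were 3.92 and 3.51. Col4a5 and Col4a6, a pair of type IV chains on the X chromosome, changed by 2.81 and 2.63 in F1 and by 2.20 and 2.36 in F2. Col4a3 and Col4a4, the chains of kidney glomerular and other specialised membranes, stood apart. Col4a3 was lower in ovary in F2 at -1.38 (SE 0.18) and did not pass in F1 at -0.41 (SE 0.18), and Col4a4 was higher in F1 at 0.61 (SE 0.25) and did not pass in F2 at 0.01 (SE 0.25). Both F1 results turned on testis control A: without it Col4a4 no longer passed at 0.61 (SE 0.27, edgeR adjusted p = 0.058) and Col4a3 passed at -0.40 (SE 0.16, edgeR adjusted p = 0.04).

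The chains of each type IV pair lie head to head in the genome. Promoters are shown for Col4a1 with Col4a2 and for Col4a6 with Col4a5, and none are shown for Col4a3 with Col4a4. Col4a1 and Col4a2 start 21 bases apart on opposite strands in RefSeq on build GRCm38.p6, so that their windows of 250 bases before to 50 bases after the start share 78 bases, while Col4a6 and Col4a5 start 1343 bases apart. Each sequence is printed 5′ to 3′ on the strand of its gene. Capitals mark CCAAT and GGGCGG on either strand, where the other strand reads ATTGG and CCGCCC.
Col4a1 (chr8:11312777-11313076, minus strand): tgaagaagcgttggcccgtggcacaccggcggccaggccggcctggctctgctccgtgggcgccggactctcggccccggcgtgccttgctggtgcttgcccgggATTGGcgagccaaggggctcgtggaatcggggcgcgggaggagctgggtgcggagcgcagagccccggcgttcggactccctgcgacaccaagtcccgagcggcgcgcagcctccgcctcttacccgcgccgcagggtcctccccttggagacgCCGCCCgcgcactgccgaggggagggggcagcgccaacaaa
Col4a2 (chr8:11312555-11312854, plus strand): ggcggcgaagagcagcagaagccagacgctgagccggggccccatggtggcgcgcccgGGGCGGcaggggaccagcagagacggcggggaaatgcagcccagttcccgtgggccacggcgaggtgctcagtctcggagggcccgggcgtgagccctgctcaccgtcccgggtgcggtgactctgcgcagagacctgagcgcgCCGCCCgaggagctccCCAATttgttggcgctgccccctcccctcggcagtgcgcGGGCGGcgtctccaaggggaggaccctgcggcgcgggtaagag
Col4a6 (chrX:141474027-141474326, minus strand): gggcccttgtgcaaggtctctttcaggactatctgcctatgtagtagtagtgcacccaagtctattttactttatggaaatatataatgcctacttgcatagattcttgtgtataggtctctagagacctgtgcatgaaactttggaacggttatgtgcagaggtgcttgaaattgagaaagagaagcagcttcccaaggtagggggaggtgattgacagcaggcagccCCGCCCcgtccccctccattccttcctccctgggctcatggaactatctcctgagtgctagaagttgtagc
Col4a5 (chrX:141475169-141475468, plus strand): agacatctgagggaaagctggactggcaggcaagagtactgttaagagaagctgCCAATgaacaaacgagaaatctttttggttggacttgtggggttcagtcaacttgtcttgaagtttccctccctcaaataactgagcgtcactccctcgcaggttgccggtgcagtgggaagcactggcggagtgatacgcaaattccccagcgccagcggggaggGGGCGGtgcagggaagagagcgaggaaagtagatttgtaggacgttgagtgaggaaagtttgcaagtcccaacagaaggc
RefSeq promoters were found for 35 of the 44 collagen genes. GGGCGG occurred on either strand in 22 of them (62.9%), against 35.7% of all 32851 promoters of this length. CCAAT occurred in 13 (37.1%, against 37.4%) and TATAAA in 5 (14.3%, against 13.6%). These are letter matches only, both strands were searched for each motif, and CCAAT can share its first letters with the end of CCGCCC.

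Partner chains were compared over the 27 libraries of a tissue with both generations pooled, so a shift between generations adds to these SDs. Of 10 pairs, 4 had a difference that varied less than either chain alone in both tissues, and 2 more did so in ovary and 1 in testis. For 1 of the 4, Col4a3 with Col4a4, this did not hold within F2 ovary. There the SD of the difference was 0.243, against 0.237 and 0.372 for the chains alone. The difference in log2 CPM between Col4a1 and Col4a2 had an SD of 0.08 over 27 testis libraries and 0.05 over 27 ovary libraries, while Col4a1 alone had SDs of 0.25 and 0.22. For Col6a1 and Col6a2 the SD of the difference was 0.15 in testis and 0.06 in ovary, against 0.47 and 0.20 for Col6a1 alone. Col1a1 and Col1a2 showed the same pattern, at 0.16 and 0.12 against 0.56 and 0.26. For Col5a1 and Col5a2 the pooled SD of the difference was 0.61 in testis, where the chains alone had 0.47 and 0.49. In ovary it was 0.19, where they had 0.22 and 0.25. Within F1 this order was reversed, at 0.618 in testis against 0.624 and 0.634, and at 0.231 in ovary against 0.202 and 0.224. For Col4a5 and Col4a6 the pooled SD was 0.23 in testis against 0.22 and 0.17 alone, and 0.20 in ovary against 0.39 and 0.26. Col8a1 and Col8a2 varied more apart than alone, with an SD of the difference of 0.63 in testis and 0.45 in ovary, against 0.46 and 0.36 for Col8a1 alone.

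Of the 6 type VI chains, which form beaded microfibrils around cells, 5 were higher in ovary in F1 and 4 in F2. Col6a1 was at 752, 973 and 743 CPM in F1 control ovaries and at 55.1, 22.6 and 25.5 CPM in testes. Its log2 change was 4.26 (SE 0.37, edgeR adjusted p = 1.8e-06), with 4.38 (SE 0.47) for Col6a2 and 4.15 (SE 0.33) for Col6a3. In F2 the changes of these 3 chains were 4.33, 4.64 and 3.94. Col6a4 was higher by 3.07 (SE 0.31) in F1 and 2.80 (SE 0.30) in F2. Col6a6 was higher by 1.93 (SE 0.50) in F1 and did not pass in F2 at 0.96 (SE 0.49). Col6a5 did not pass in either generation, at -0.47 (SE 0.69) and -0.25 (SE 0.69). It was the collagen gene with the widest spread within groups in both tissues: its SD of log2 CPM within groups was 1.03 in ovary, where libraries ran from 3.53 to 34.6 CPM, and 0.73 in testis, where they ran from 6.18 to 37.7 CPM. The next widest among genes with a median of at least 1 CPM were Col28a1 at 0.72 and Col17a1 at 0.46 in ovary, and Col1a1 at 0.65 and Col6a2 at 0.60 in testis.

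The FACIT class went mostly the other way, with 6 of 9 genes lower in ovary in F1 and 7 in F2. Type IX collagen, whose 3 chains sit together on type II fibrils in cartilage, was split between the gonads. Col9a2 was at 61, 83.7 and 96.3 CPM in F1 control ovaries and at 0.221, 0.0882 and 0.128 CPM in testes, where 4 to 9 counts lie behind each value. The log2 change of 8.77 (SE 0.43, edgeR adjusted p = 3.9e-08) was the largest of all collagen genes, and it was 8.13 (SE 0.42) in F2. Col9a1 and Col9a3 were lower in ovary. Col9a3 was at 3.55, 3.54 and 3.56 CPM in F1 control ovaries and at 21.6, 27.6 and 28.3 CPM in testes, log2 changes of -3.17 (SE 0.17) in F1 and -3.13 (SE 0.17) in F2. Col9a1 had a mean of 4.08 CPM (SD 0.33) in F1 control testes and changed by -4.20 (SE 0.80), by -6.35 (SE 0.53) without ovary control A and by -5.96 (SE 0.89) in F2.

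Col22a1, known from the junction of muscle and tendon, was at 297, 394 and 420 CPM in F1 control testes and at 30.5, 11.2 and 19.6 CPM in ovaries. Its highest ovary value was again that of control A. The log2 change was -4.46 (SE 0.46, edgeR adjusted p = 7e-06), -4.96 (SE 0.39) without that library and -4.83 (SE 0.47) in F2. Col19a1, a chain of basement membrane zones, changed by -2.99 (SE 0.32) in F1 and -4.51 (SE 0.34) in F2. Col20a1 changed by -1.28 (SE 0.23) and -0.95 (SE 0.23), and Col12a1, a collagen of dense connective tissue, was higher in ovary by 3.22 (SE 0.33) and 2.14 (SE 0.31). Col16a1 was called lower in ovary in both generations, at -0.74 (SE 0.16) and -0.39 (SE 0.16), but the F2 change was 0.06 (adjusted p = 0.73) when libraries were scaled by total count alone. Col14a1, which binds to the surface of type I fibrils, did not pass in F1 at -0.22 (SE 0.18) and was lower in F2 at -0.82 (SE 0.18).

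Among the remaining classes, Col15a1 and Col18a1, the multiplexins of vascular and epithelial basement membranes, were higher in ovary by 1.70 (SE 0.18) and 1.73 (SE 0.16) in F1 and by 1.17 and 1.65 in F2. The short-chain Col8a1 and Col8a2, which form hexagonal networks, were higher by 1.89 and 2.26 in F1 and by 0.94 and 3.24 in F2. Col10a1, a marker of hypertrophic cartilage, had no count in 15 of 27 testis libraries and at most 5 in any, and 2 to 31 counts in ovary libraries. Col13a1 and Col25a1, which span the cell membrane, were higher in ovary by 2.66 and 1.79 in F1, and Col17a1, the collagen of hemidesmosomes, was lower by -1.51 (SE 0.35) in F1 and -2.57 (SE 0.37) in F2. Col23a1 did not pass, at 0.02 (SE 0.16) and 0.01 (SE 0.16). Col7a1, the chain of anchoring fibrils, was higher by 0.52 (SE 0.21) in F1 and did not pass in F2 at 0.46 (SE 0.21). Col28a1 was lower in ovary by -1.67 and -3.02. Col26a1 was called higher in ovary at 0.55 and 0.66, but in F1 it no longer passed without testis control A, at 0.14 (SE 0.19, edgeR adjusted p = 0.51), or without ovary control A, at 0.48 (SE 0.23, edgeR adjusted p = 0.067).

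**Figure D2:**
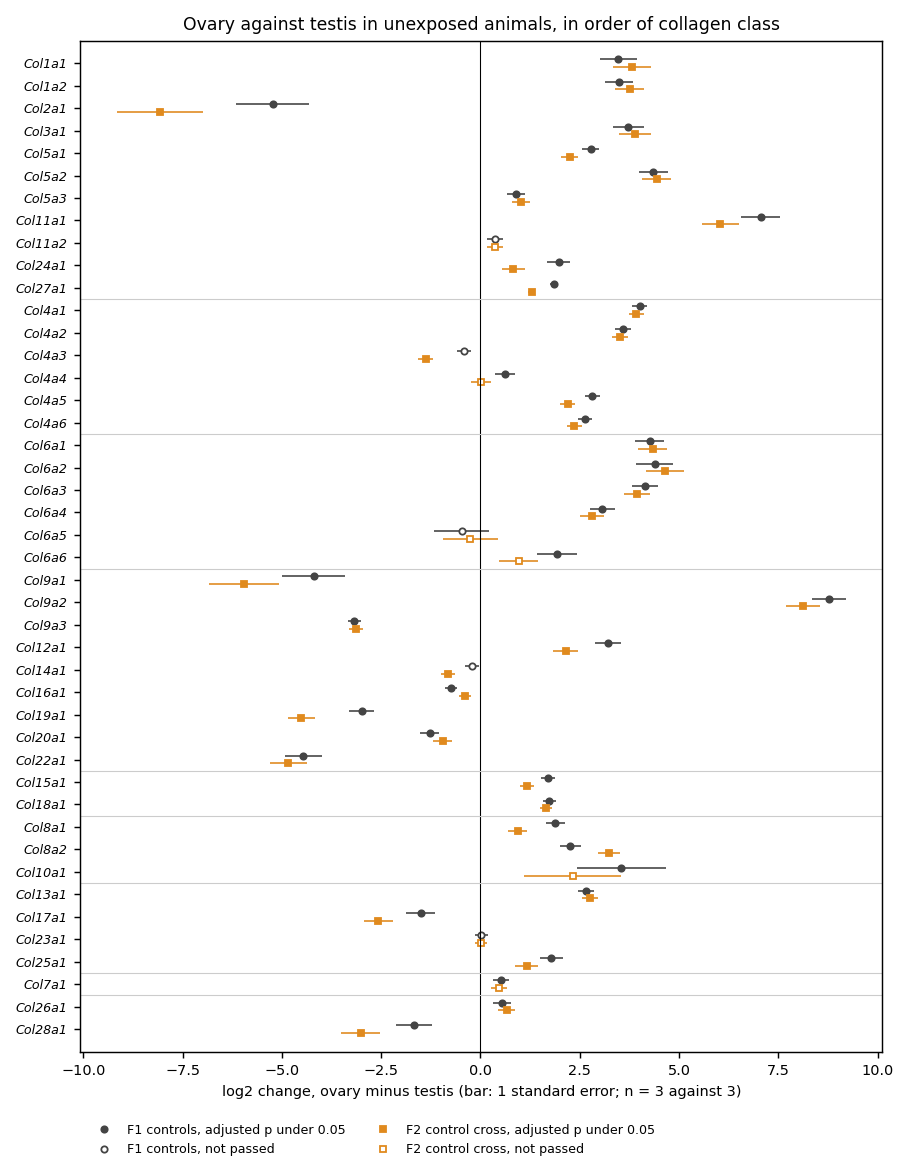
The log2 change, ovary minus testis, of each collagen gene in F1 controls (grey circles) and the F2 control cross (orange squares), 3 libraries against 3, with bars of 1 standard error; filled points passed an adjusted p of 0.05 and open points did not. Col9a2 lies farthest to the right at 8.77 and 8.13 and Col2a1 farthest to the left at -5.23 and -8.08, and the other 2 type IX chains lie on the left.

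Genes that make, process and bind collagen were tested in the same fits, from lists of 82 genes of which 80 could be tested in these libraries. In F1 controls 74 were higher in ovary and 2 lower, and in F2 70 were higher and 5 lower. Of all genes 43.2% were called higher and 42.4% lower in F1, and 42.4% and 44.5% in F2. All 12 of the basement membrane partners (laminin chains, nidogens, perlecan and agrin) were higher in both generations, with Lama4 at log2 changes of 4.40 and 3.63. The gene named for each list is that of the lowest p in F1 or F2. Of the 21 genes for hydroxylation and folding 19 were higher in F1 and 17 in F2, with the chaperone Fkbp10 at 3.68 and 4.03. Of the 13 genes for processing and crosslinking 12 and 11 were higher, with the procollagen protease Bmp1 at 4.64 and 4.57. Of the 10 fibril partners 9 were higher in each generation, with Thbs2, a matricellular protein, at 5.57 and 5.50. The receptors, with 9 of 11 genes higher in each generation, included Itgb1 at 2.77 and 2.69. For collagen degradation 13 of 13 tested genes were higher in F1 and 12 in F2, with Mmp11 at 4.88 and 4.78.

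The cocktail comparisons asked whether collagen genes differed with dose in F1 animals or with the exposure of a parent in F2 animals. In all 14 comparisons with a control and all 6 direct comparisons between exposed groups, edgeR called 0 of the 43 collagen genes tested in each. Across the 14 comparisons with a control, 37 of 602 estimates (6.15%) had an unadjusted p under 0.05, against 7.22% of all estimates in these comparisons, and the lowest adjusted p was 0.16. DESeq2, run as an alternative, called 1 collagen gene in the 20 comparisons, in one where it called 236 of the 26264 genes (0.899%). Shares for DESeq2 are of all 26264 genes counted, while those for edgeR are of the genes that passed its filter. The median size of an estimate was 0.17 on the log2 scale and the median SE was 0.20, so small changes were not detectable with 3 libraries a group. The untested gene was Col10a1 in testis and Col9a1 in ovary, both too low for the filter. The 5 crosses of a tissue share the 3 control cross libraries, as the 2 doses share the F1 controls, so their estimates are not independent.

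**Figure D3:**
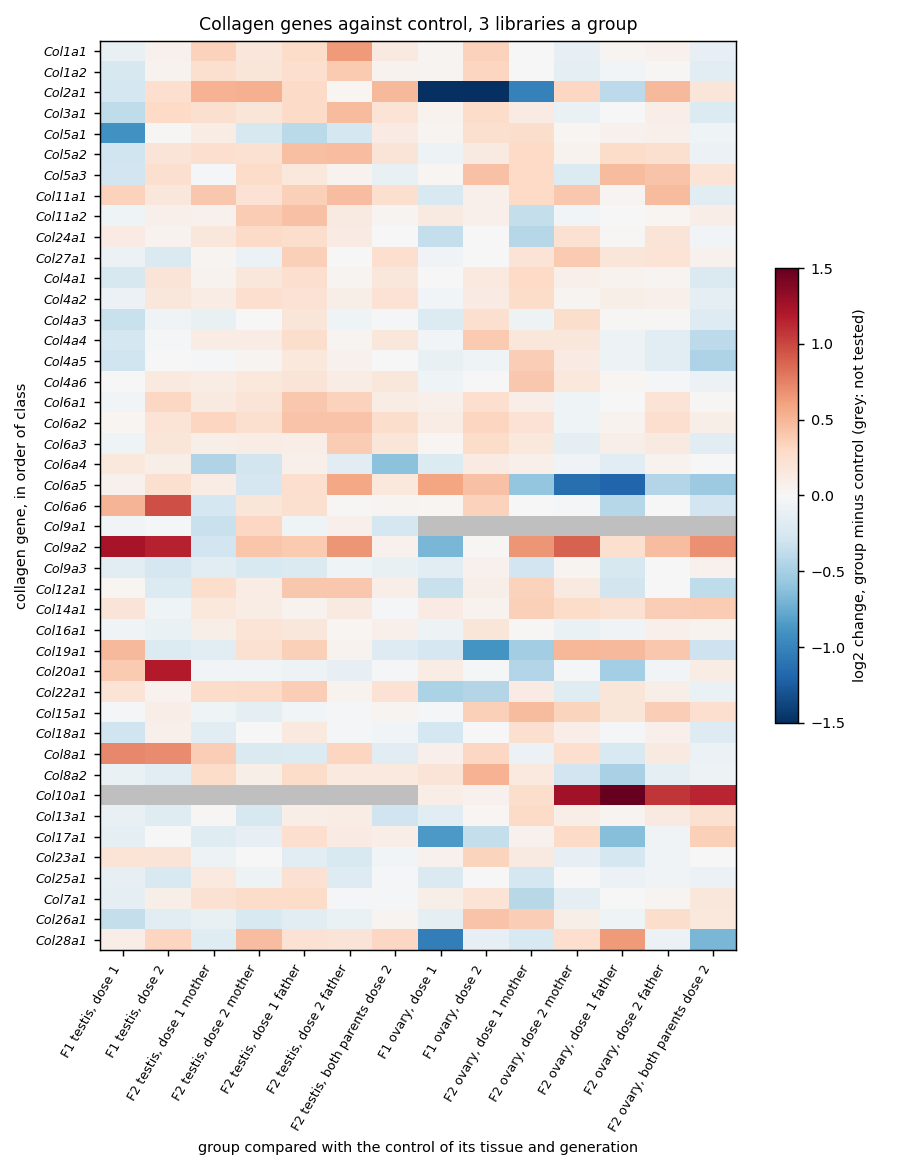
Colour gives the log2 change of each collagen gene (rows, in order of class) against the control of its tissue and generation in 14 comparisons (columns), 3 libraries a group. Red is higher and blue lower than control, values beyond 1.5 take the end colour and grey was not tested; no cell passed an adjusted p of 0.05, and the 13 changes with a size over 1 are those of Col2a1 and Col28a1 in F1 ovary, Col9a2 and Col20a1 in F1 testis, and Col2a1, Col6a5 and Col10a1 in F2 ovary.

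In F1 testis 16 of 43 collagen genes had a higher estimate at dose 1 and 27 a lower one, and no gene was called (0.021% of 19025 genes were). An unadjusted p under 0.05 was reached by 2 (3.18% of all genes). The lowest p belonged to Col5a1, at 45.9, 32.7 and 36.5 CPM in controls and 21.0, 26.2 and 14.6 CPM at dose 1. The groups did not overlap, with a log2 change of -0.91 (SE 0.35, edgeR adjusted p = 0.998). At dose 2 Col5a1 was at 34.4, 61.3 and 22.5 CPM and overlapped both groups. For 10 chains that were followed in every comparison (Col1a1, Col1a2, Col3a1, Col4a1, Col4a2, Col6a1, Col6a2, Col6a3, Col15a1 and Col18a1) changes at dose 1 ran from -0.38 (SE 0.52) for Col3a1 to 0.03 (SE 0.58) for Col6a2. Without control A, 27 genes had a higher estimate at dose 1.

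At dose 2 in F1 testis 30 of 43 estimates were higher than control and 13 lower, with none called (0.00526% of genes were) and 0 at an unadjusted p under 0.05 (1.93% of genes). Of all genes 52.2% had a higher estimate. The lowest p was that of Col6a6, at 6.56, 3.22 and 2.05 CPM in controls and 6.16, 12.0 and 5.28 CPM at dose 2, a log2 change of 0.96 (SE 0.45). The groups overlapped. The same 10 chains ran from 0.05 (SE 0.49) for Col1a2 to 0.31 (SE 0.56) for Col6a1. The direction of the class rested on dose 2 B: without it 11 of 43 estimates were higher and the median moved from 0.07 to -0.28. Between dose 2 and dose 1 no gene was called (0.0263% of genes were), 2 had an unadjusted p under 0.05 (3.31% of genes), and Col5a1 had the lowest p at 0.93 (SE 0.35).

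F1 testis libraries of one group differed widely. Col1a1 was at 116, 36.2 and 45.7 CPM in controls A, B and C, at 73.2, 43.2 and 69.0 CPM at dose 1 and at 35.9, 135 and 40.1 CPM at dose 2. The high values were control A and dose 2 B, the libraries with the lowest spermatid marker sums, 8237 and 7158 CPM. The same 2 libraries were the highest of the 9 for Col1a2, Col3a1, Col6a1, Col6a2, Col6a3 and Col4a1. Their summed peritubular myoid and smooth muscle markers, 345 CPM in each, were the lowest of the 9 libraries. This sum rested largely on Actg2, whose median over all testis libraries was 233 CPM, with Acta2 next at 54.0 CPM. The fibroblast and stroma markers of control A and dose 2 B were at 146 and 166 CPM in a range of 120 to 166 CPM.

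Col20a1, a FACIT collagen of little-known function, went the opposite way. It was at 65.5, 113 and 146 CPM in controls, at 111, 183 and 134 CPM at dose 1 and at 125, 61.6 and 572 CPM at dose 2. The value of 572 CPM was that of dose 2 C, which had the highest spermatid marker sum, 29723 CPM, and also the highest sums of several other marker lists. These were 266 CPM for macrophages against 105 to 152 CPM in the other F1 testes, 78.5 against 21.8 to 45.6 CPM for adipocytes, 601 against 417 to 501 CPM for Sertoli cells, 554 against 345 to 443 CPM for myoid and smooth muscle cells, 249 against 118 to 167 CPM for granulosa cells and 172 against 83.4 to 162 CPM for epididymis. In testis the epididymis sum was nearly all Cst8, at 83.2 to 172 CPM. The granulosa sum was mostly Inha, at 75.3 to 229 CPM, while Foxl2 was at most 0.613 CPM. The log2 change of Col20a1 at dose 2 was 1.19 (SE 0.68, edgeR adjusted p = 0.98) with dose 2 C and -0.21 (SE 0.38) without it.

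Over the 9 F1 testis libraries log2 CPM of Col20a1 rose with the log2 spermatid marker sum, with Pearson's r = 0.91 (exact permutation p = 7.4e-05, adjusted over 40 genes 0.003) and Spearman's rho = 0.98 (exact permutation p = 5e-05, adjusted 0.002). Without the 2 libraries farthest from the median marker sum, dose 2 B and control A, r was 0.89. In the 18 F2 libraries, where Col20a1 ranged only from 55.7 to 68.3 CPM, r was 0.74 (permutation p = 0.00056, adjusted over 41 genes 0.023), rho was 0.75 (permutation p = 0.00052, adjusted 0.021) and r was 0.70 without the 2 farthest. In F1, 33 of 40 genes had a negative r, 22 of the 40 passed by Pearson's r and only Col20a1 by Spearman's rho. Many of these relations rested on dose 2 B and control A: r for Col1a1 was -0.77 with all 9 and -0.16 without the pair, and r for Col3a1 was -0.79 and 0.06. Among the type IV chains r was -0.88 and -0.81 for Col4a1, -0.87 and -0.78 for Col4a2, -0.95 and -0.84 for Col4a3, -0.91 and -0.65 for Col4a4 and -0.91 and -0.66 for Col4a5, but -0.19 and 0.68 for Col4a6. In F2 r of the 6 chains ran from -0.28 for Col4a6 to 0.17 for Col4a4. These CPM values were scaled by TMM and are not plain shares of a library. Whether the amount of spermatid RNA still bears on other levels after this scaling was not tested.

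**Figure D4:**
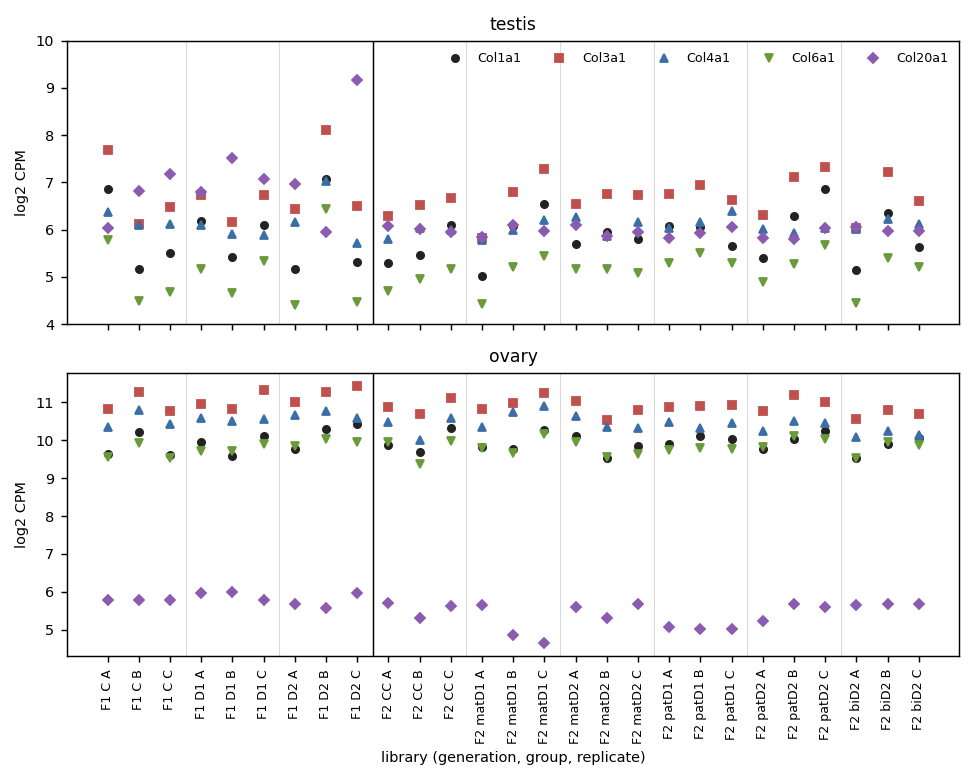
Level as log2 CPM of Col1a1, Col3a1, Col4a1, Col6a1 and Col20a1 in each library of testis (top) and ovary (bottom), 1 point per gene and library, with a black line between F1 and F2 and grey lines between groups (C, control; D1 and D2, doses; CC, control cross; mat and pat, mother or father exposed; bi, both parents). In F1 testis control A and dose 2 B are high for the first 4 genes and low for Col20a1, and dose 2 C is high for Col20a1 at 572 CPM.

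**Figure D5:**
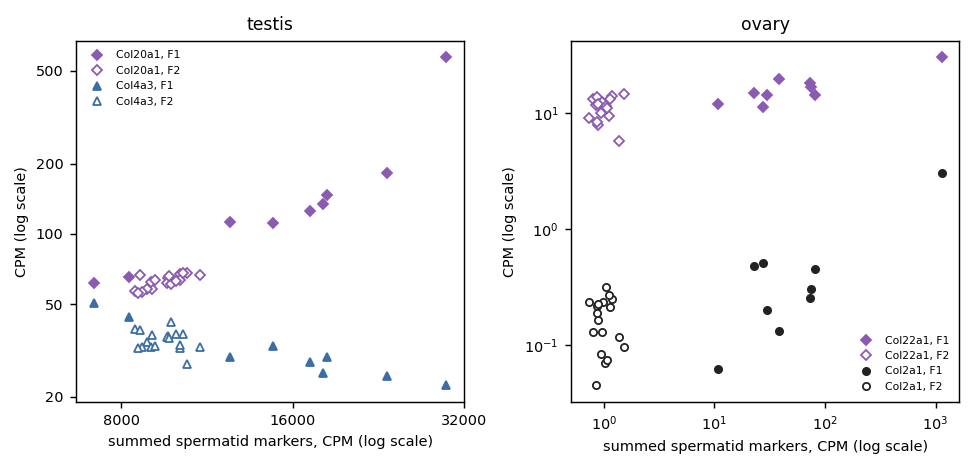
Level in CPM (vertical, log scale) against the summed CPM of 8 spermatid markers (horizontal, log scale) for Col20a1 and Col4a3 in 27 testis libraries (left) and Col22a1 and Col2a1 in 27 ovary libraries (right), filled for F1 and open for F2. Col20a1 climbs and Col4a3 declines along the F1 testis libraries, and the ovary library at 1139 CPM, F1 control A, has the highest Col22a1 and Col2a1.

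In F2 testis the spermatid marker sums lay within a narrow range. The collagen gene with the lowest p after exposure of the dose 1 mother, the dose 2 mother or the dose 1 father was Col22a1. It was at 214, 246 and 211 CPM in the control cross, at 245, 273 and 292 CPM with a dose 1 mother, at 259, 268 and 291 CPM with a dose 2 mother and at 251, 323 and 297 CPM with a dose 1 father. The last 2 groups lay above all controls, and the first overlapped them. With a dose 2 father Col22a1 was at 258, 195 and 244 CPM and with 2 dose 2 parents at 287, 245 and 251 CPM, overlapping the controls. The log2 change with a dose 1 father was 0.37 (SE 0.11, edgeR adjusted p = 0.16, DESeq2 adjusted p = 0.048), the single collagen call of DESeq2. It was 0.29 (SE 0.11, edgeR adjusted p = 0.21) with a dose 2 mother and 0.27 (SE 0.11, edgeR adjusted p = 0.73) with a dose 1 mother.

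With a dose 1 father 35 of 43 collagen genes in F2 testis had a higher estimate, against 50.7% of all genes, and 7 lay above all controls without overlap where 8.89% of all genes did. These were Col22a1, Col4a1, Col4a3, Col4a4, Col4a6, Col5a2 and Col6a1. No gene was called by edgeR (0.201% of 19379 genes were), and 6 had an unadjusted p under 0.05, 14.0% of the 43 against 12.5% of all genes. The same 10 chains ran from -0.04 (SE 0.10) for Col15a1 to 0.43 (SE 0.29) for Col6a2. The median estimate was 0.24 over collagen genes and 0.00 over all genes. The higher estimates numbered 27 of 43 with a dose 1 mother (0.0103% of all genes called), 30 with a dose 2 mother (0.372%), 32 with a dose 2 father (0.00516%) and 27 with 2 dose 2 parents (0.0155%), with 0 collagen genes called in each. In that order 2, 2, 1 and 1 collagen genes had an unadjusted p under 0.05, against 6.54%, 15.7%, 5.02% and 7.02% of all genes. The 10 chains ran from -0.17 to 0.35, from -0.14 to 0.25, from -0.03 to 0.64 and from -0.04 to 0.27 in these comparisons, with Col1a1 highest at 0.64 (SE 0.36) for the dose 2 father.

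The lowest p with a dose 2 father was that of Col6a3, at 17.7, 16.9 and 18.7 CPM in the control cross and 17.0, 26.9 and 25.7 CPM in the exposed cross, a log2 change of 0.38 (SE 0.17). One exposed library lay within the controls. With 2 dose 2 parents it was Col6a4, a type VI chain, at 25.5, 42.7 and 34.7 CPM against 25.8, 19.4 and 21.9 CPM, a log2 change of -0.62 (SE 0.18, edgeR adjusted p = 0.46), with 1 exposed library inside the range of the controls. Between the dose 1 mother and the dose 1 father 0 genes were called (0.0413% of all) and 8 had an unadjusted p under 0.05 (11.5% of all), with Col4a3 first at -0.29 (SE 0.09). Between the dose 2 mother and the dose 2 father 0 were called (0.119% of all) and 1 had an unadjusted p under 0.05 (16% of all), with Col22a1 first at 0.24 (SE 0.11).

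In F1 ovary the dose 1 estimates were higher for 18 of 43 genes and lower for 25, with 0 called (0% of 17896 genes) and 1 at an unadjusted p under 0.05 (8.33% of genes). That gene was Col9a2, at 61, 83.7 and 96.3 CPM in controls and 59.3, 57.4 and 35.2 CPM at dose 1. The groups did not overlap, with a log2 change of -0.68 (SE 0.29, edgeR adjusted p = 0.55). At dose 2 Col9a2 was at 49.7, 91.3 and 103 CPM and overlapped the controls. Dose 2 gave higher estimates for 35 of 43 genes, against 45.0% of all genes, again with 0 called (0% of genes) and 5 at an unadjusted p under 0.05 (3.75% of genes). All dose 2 libraries lay above all controls for 6 collagen genes and for 3.62% of all genes. The 6 were Col15a1, Col23a1, Col5a3, Col6a6, Col7a1 and Col8a2, while Col19a1 lay below all controls.

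The lowest p at dose 2 was that of Col8a2, a short-chain collagen, at 15.0, 15.8 and 14.6 CPM in controls and 17.1, 24.4 and 23.8 CPM at dose 2. Its log2 change was 0.53 (SE 0.14, edgeR adjusted p = 0.81), and every dose 2 library was above the controls. The same 10 chains ran from -0.26 (SE 0.16, Col18a1) to 0.11 (SE 0.14, Col6a2) at dose 1 and from -0.0035 (SE 0.16, Col18a1) to 0.36 (SE 0.15, Col15a1) at dose 2. Col2a1 had log2 changes of -2.24 (SE 1.08) and -1.97 (SE 1.08) at the 2 doses with all libraries, and of -0.29 (SE 0.81) and -0.01 (SE 0.81) without control A. Without control A, 28 of 43 estimates were higher at dose 2 and 1 gene had an unadjusted p under 0.05. Between dose 2 and dose 1, 37 of 43 estimates were higher, 0 were called (0% of genes) and 6 had an unadjusted p under 0.05 (6.02% of genes), led by Col4a3 at 0.45 (SE 0.14).

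In F2 ovary Col15a1, a multiplexin that links basement membranes to the matrix, had the lowest p in the comparisons with a dose 1 mother and a dose 2 father. It was at 129, 88.1 and 141 CPM in the control cross, at 147, 188 and 163 CPM with a dose 1 mother and at 140, 149 and 171 CPM with a dose 2 father. The dose 1 mother group lay above all controls, while 1 library of the dose 2 father group did not. The low value of 88.1 CPM belonged to control cross B, whose summed collagen level of 8762 CPM was the lowest of the 27 ovary libraries. The log2 changes were 0.47 (SE 0.15, edgeR adjusted p = 0.35) and 0.37 (SE 0.15, edgeR adjusted p = 1.00). Col15a1 was also the highest of the same 10 chains in the other 3 crosses, at 0.33 with a dose 2 mother, 0.18 with a dose 1 father and 0.25 with 2 dose 2 parents, against the same 3 control libraries.

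With a dose 1 mother 30 of 43 estimates were higher in F2 ovary, 0 were called (0% of 17400 genes) and 6 had an unadjusted p under 0.05 (13.1% of genes). This count rested on replicate A: without it edgeR called 5 collagen genes, where 7.71% of all genes were called. Col4a5 and Col4a6, the X-linked type IV pair, were among them. Col4a5 was at 119, 78.9 and 84.5 CPM in the control cross and at 78.8, 133 and 155 CPM in replicates A, B and C, so that A lay with the controls and B and C above them. Without A the changes were 0.60 (SE 0.17) for Col4a5, 0.60 (SE 0.15) for Col4a6, 0.90 (SE 0.25) for Col9a2, -0.65 (SE 0.17) for Col11a2 and -0.82 (SE 0.15) for Col20a1, with adjusted p-values of 0.013 to 0.044. Col20a1 was at 52.7, 39.9 and 49.4 CPM in the control cross and at 50.5, 29.0 and 25.0 CPM in A, B and C. The granulosa marker sums of A, B and C were 7641, 7030 and 9337 CPM, where the control cross had 6999 to 8958 CPM. Their Leydig and steroidogenic marker sums were all below the controls, at 5889, 5138 and 5496 CPM against 6967 to 7636 CPM. This was not particular to the dose 1 mother. The other exposed F2 crosses were also below the controls, at 4265 to 6549 CPM, except replicate C of 2 dose 2 parents at 7094 CPM. Replicate C of the dose 1 mother was above the controls for surface epithelium and mesothelium markers, at 445 against 250 to 295 CPM. It was also above them for the Sertoli list, at 696 against 405 to 512 CPM. In ovary the Sertoli list rested mostly on Amhr2, at 191 to 431 CPM, and Wt1, at 116 to 187 CPM. Sox9 of that list was at most 5.19 CPM. The part of these markers in this result was not tested.

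The other F2 ovary crosses gave 0 calls each. The dose 2 mother comparison (0% of genes called, 26 of 43 estimates higher, 3 at an unadjusted p under 0.05 against 6% of genes) was led by Col27a1, a fibrillar collagen of cartilage and other tissues, at 113, 94.7 and 102 CPM in the control cross and 144, 130 and 133 CPM in the exposed cross. These groups did not overlap, with a log2 change of 0.39 (SE 0.11, edgeR adjusted p = 0.63). The dose 1 father comparison (0.00575% called, 24 higher, 4 at an unadjusted p under 0.05 against 4.97% of genes) was led by Col8a2, at 22.0, 17.5 and 22.2 CPM against 15.2, 13.3 and 15.3 CPM. Its log2 change was -0.49 (SE 0.17, edgeR adjusted p = 0.73), again without overlap. The dose 2 father comparison (0% called) had 32 estimates higher and 2 at an unadjusted p under 0.05 (3.82% of genes).

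With 2 dose 2 parents (0% called) 17 of 43 estimates were higher in F2 ovary and 2 had an unadjusted p under 0.05 (9% of genes). Col9a2 came first, at 46.1, 88.0 and 55.4 CPM in the control cross and 115, 89.0 and 100 CPM in the exposed cross, a log2 change of 0.69 (SE 0.26, edgeR adjusted p = 0.51). The exposed libraries lay above all controls, by a narrow margin. Abundant chains ran from -0.15 to 0.33 for the dose 2 mother, from -0.04 to 0.18 for the dose 1 father, from 0.02 to 0.37 for the dose 2 father and from -0.21 to 0.25 for 2 dose 2 parents. In the dose 1 mother comparison they ran from -0.01 to 0.47. The dose 1 mother against the dose 1 father gave 0 calls (0.00575% of genes) and 6 at an unadjusted p under 0.05 (12.6% of genes), with Col8a2 first at 0.64 (SE 0.17). Without replicate A of the dose 1 mother it gave 5 calls, where 6.12% of genes were called. The dose 2 mother against the dose 2 father gave 0 calls (0% of genes) and 1 at an unadjusted p under 0.05 (2.38% of genes), with Col5a3 first at -0.64 (SE 0.30).

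The difference between the tissues in the F1 dose changes was tested directly. At dose 1 edgeR called 0 of 44 collagen genes (0.00492% of 20336 genes), with 2 at an unadjusted p under 0.05 (11.4% of genes), and at dose 2 also 0 (0% of genes), with 1 at an unadjusted p under 0.05 (5.32% of genes). DESeq2 called 0 in both, where it called 20 and 2 of all genes.

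Of the 82 collagen-related genes, 78 were tested in testis and 80 in ovary. Over the 14 comparisons with a control edgeR called 0 of 1106 estimates, 96 (8.68%) had an unadjusted p under 0.05, against the 7.22% of all estimates given above, and DESeq2 called 3. Those 3 were Lamb2, a laminin chain, in F2 testis with a dose 2 mother at an edgeR log2 change of 0.35 (SE 0.10, adjusted p = 0.14), Lama1, another laminin chain, in F2 ovary with a dose 1 mother at 0.71 (SE 0.16, adjusted p = 0.35), and Sec23a, of the coat that carries procollagen out of the endoplasmic reticulum, in F2 ovary with 2 dose 2 parents at -0.64 (SE 0.13, adjusted p = 0.46). In the same 3 comparisons DESeq2 called 1.28%, 0.0838% and 0.08% of all 26264 genes. Between the dose 2 mother and the dose 2 father in F2 testis, the lowest p belonged to Antxr1, a receptor for collagen, at -0.57 (SE 0.12, edgeR adjusted p = 0.064). DESeq2 called it there together with Lama5, Itga11 and Mia2, where it called 1.82% of all genes. Between the dose 1 mother and the dose 1 father in F2 testis DESeq2 called Itgb1, at an edgeR change of -0.24 (SE 0.06, adjusted p = 0.15), where DESeq2 called 0.579% of all genes.

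The generations were set side by side without a test, since generation goes along with treatment and with whatever else differed between the sets. Col4a3 in ovary was the one collagen gene whose F1 libraries all lay above its F2 libraries, at 26.5 to 44.2 CPM against 14.8 to 26.2 CPM, where 2.77% of 18500 genes did so. No collagen gene was lower in all F1 ovary libraries, where 2.71% of genes were, and none separated the generations in testis, where 1.13% of 19829 genes were higher and 0.398% lower in F1.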

How the data were processed

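The authors deposited raw counts per gene for 54 libraries in 2 tables of 26264 genes; per the labels' protocols RNA was isolated with Trizol and libraries were made with a stranded mRNA ligation kit. The submitters' processing notes list, with no role, TopHat2 2.1.1, featureCounts 2.0.3, SAMtools 1.13, Bowtie2 2.4.5, DESeq2 1.32.0, FastQC 1.19, bcl2fastq 2.20 and build mm39. Which annotation was counted, and on which strand, is not given in the sources read for this text, so reads of antisense neighbours cannot be told apart: 13 of the 44 collagen genes overlap an exon of another gene in GENCODE M21, none over more than 10% of its exons. Files and reference differ in build, so no coordinates of the counted genes are given.

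Every group held 3 libraries. Each tissue and generation was fitted on all genes with edgeR 4.0.16 (R 4.3.3, TMM, filterByExpr with a minimum count of 10, quasi-likelihood test, Benjamini-Hochberg at 0.05); the 12 unexposed libraries, and the 18 F1 libraries, of both tissues were fitted jointly. The fit was checked on simulated data. A log2 CPM adds a prior count of 2. Alternatives were other scalings, no filter, DESeq2 1.42.0, a replicate block, fewer libraries and a prior count of 0.5. The smallest chi-square per degree of freedom between replicates was 7.43, larger than sampling noise gives. Relations with spermatid markers used exact permutation in F1 and 100000 resamples in F2.

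Named are collagen genes that passed, the lowest p where none did, 10 chains followed in every comparison, the 5 largest tissue differences a direction, genes of widest spread and partner chains. The members and lists were chosen with earlier results of these data known. Genes chosen after their values were seen are Col20a1 and the type IV chains in the marker relation, Col2a1 in F1 ovary and the related genes named between exposed crosses.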

Additional observations from a re-analysis of the deposited data

How the results depend on the processing

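The count of collagen genes called stayed within 1.5 times its value, or at 0, in 274 of 277 checks. The exceptions were 1 gene with DESeq2 for the dose 1 father in F2 testis, and leaving out 1 library for the dose 1 mother in F2 ovary against the control cross and against the dose 1 father, with a range of 0 to 5 in each; the upper value came without dose 1 mother replicate A, and the cause was not tested. With the replicate block, 0 collagen genes were called in the dose and cross comparisons, and 2 single calls between ovary and testis were lost. The letters share only a name: 5 of 45 group pairs in F2 testis and 5 of 45 in F2 ovary correlated above 0.1, and 2 and 3 of 9 in F1.

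Of single genes called between ovary and testis, 796 checks kept their call, 37 lost it and 1 changed sign, Col16a1 in the F2 control cross at 0.063 with library size alone. Scaling moved the median of all genes from 0.05 and -0.05 in F1 and F2 to -0.28 in both with RLE factors and to 0.42 and 0.40 with library size alone. Collagen calls then split into 27 higher and 11 lower, and 32 and 8, in F1, and into 24 and 11, and 30 and 9, in F2. In the same order, 44.4% and 56.7% of all called genes were higher in F1, and 44.8% and 55.7% in F2. Over these scalings the collagen median was between 0.94 and 2.23. Genes under 1 CPM rest on few counts.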
